A study of Mus musculus with 20 samples.

Results

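The 6 genes described here encode the light chains of striated muscle myosin and the kinases named for them. Myl1, Mylpf, Myl2 and Myl3 are the light chains, and Mylk2 and Mylk3 the kinases. They were taken by name from a table of 22564 genes, and all 6 were found in it. The table holds 20 libraries of mouse heart and tibialis anterior muscle, a limb muscle of mainly fast fibres, from 5 groups of 2 mice. Values are FPKM as the authors deposited them, which divide a gene's fragments by its transcript length and by the mapped fragments of the library.

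The wild-type mice were C57BL/6N. Transgenic mice, also labelled C57BL/6N, were made by microinjection of linearized plasmids that carry a system for incorporating an unnatural amino acid (UAA) at a stop codon. The labels name neither the promoter nor the number of founder lines. The mdx mice, labelled C57BL/10, carry a nonsense mutation in Dmd, the dystrophin gene, and model Duchenne muscular dystrophy. Their strain and their mutation cannot be told apart. Trans/mdx mice came from a cross of both lines, carry the label C57BL/6N, and either received no UAA or received 50 mg of the UAA NAEK every 2 to 3 days for 4 weeks. The trans/mdx muscles without UAA bear the genotype label transgenic and were placed by their title. Ages are not given in the labels. Each replicate is a mouse, and whether a heart and a muscle with the same number came from the same mouse is not stated.

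Each myosin heavy chain carries 1 essential and 1 regulatory light chain on its lever arm. Myl1 encodes the essential light chains of fast skeletal fibres and Mylpf their regulatory light chain. Myl3 and Myl2 encode the essential and the regulatory light chain shared by the ventricle and slow skeletal fibres. Light chain kinases phosphorylate the regulatory chain and so tune the force at a given calcium level. Mylk2 is the kinase of skeletal muscle and Mylk3 that of cardiac muscle.

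Sequence upstream of a RefSeq start is shown for 3 light chains and a kinase whose levels differ between the tissues, from the RefSeq promoter table of GRCm38.p6, 5′ to 3′ on the gene's strand. The GENCODE spans given further on reach beyond these starts, so all 4 stretches lie inside the genes as GENCODE annotates them. The deposited loci differ: Mylpf starts there at 127211607 and Myl3 at 110763645, where their stretches end. Capitals mark a match to a CArG box, which serum response factor binds, or to an E-box with the letters CANNTG, which MyoD family factors bind. Stretches that overlap an annotated exon were left out.
Mylpf, chr7:127211358-127211607, plus strand: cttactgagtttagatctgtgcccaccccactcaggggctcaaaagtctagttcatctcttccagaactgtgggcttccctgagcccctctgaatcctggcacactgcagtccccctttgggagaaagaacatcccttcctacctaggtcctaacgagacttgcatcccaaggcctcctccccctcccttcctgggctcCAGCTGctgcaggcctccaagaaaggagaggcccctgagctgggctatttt
Myl1, chr1:66945144-66945290, minus strand: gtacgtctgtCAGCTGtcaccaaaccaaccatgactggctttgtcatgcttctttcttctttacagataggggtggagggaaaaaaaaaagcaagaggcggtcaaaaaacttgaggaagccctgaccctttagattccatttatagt
Myl3, chr9:110763428-110763645, plus strand: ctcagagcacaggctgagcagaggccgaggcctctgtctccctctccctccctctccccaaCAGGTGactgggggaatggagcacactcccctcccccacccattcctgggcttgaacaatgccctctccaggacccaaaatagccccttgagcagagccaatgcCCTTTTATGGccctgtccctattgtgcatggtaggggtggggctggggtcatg
Mylk3, chr8:85381042-85381291, minus strand: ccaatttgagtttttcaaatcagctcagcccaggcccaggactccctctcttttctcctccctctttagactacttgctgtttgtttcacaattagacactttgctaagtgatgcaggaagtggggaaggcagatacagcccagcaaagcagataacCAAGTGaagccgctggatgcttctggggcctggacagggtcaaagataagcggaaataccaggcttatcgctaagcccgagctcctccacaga

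The Mylpf and Myl1 stretches each held the E-box CAGCTG, 51 and 224 bases before the start at its first base. The Myl3 stretch held the CArG box CCTTTTATGG, 85 bases before the start, and the E-box CAGGTG, 189 bases before it. It also held the MCAT letters CATTCC, 177 bases before the start on the minus strand and 149 on the plus strand. The Mylk3 stretch held the E-box CAAGTG, 93 bases before the start, and 3 copies of GATAA on either strand. Both strands were searched in all 32851 windows of the RefSeq table. A CArG box was in 1.47% of them, an E-box in 66.2%, GATAA in 22.6% and the MCAT letters CATTCC in 12.6%. The MEF2 box, which was in 2.92% of all windows, matched no window that the table held for these genes. These matches describe the letters in the windows only. Mylk2 had no window in the table, and both windows of Myl2 lie upstream of its annotated gene, so neither is printed.

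Read from the steps between low values, the hearts held about 3050000 to 4110000 fragments each and the muscles 1970000 to 2560000. A fragment on 1 kilobase was then worth 0.243 to 0.327 FPKM in a heart and 0.391 to 0.509 in a muscle. Values were not scaled to a common total: FPKM summed to between 113544 and 171689 in hearts, and to between 136461 and 208611 in muscles. Wild-type muscle replicate 2 stood apart, with a median-of-ratios size factor of 1.60 against 0.862 to 1.005 in the other muscles. In heart, mdx replicate 2 had the highest factor, 1.42, and trans/mdx without UAA replicate 2 the lowest, 0.724. Zeros in such a table can be failed estimates, so a gene is described as listed at 0. The tissue labels were checked against marker genes: Myh6, the main ventricular myosin of the mouse, stood at 721 to 1367 FPKM in heart and at no more than 1.98 in muscle. Skeletal actin, Acta1, stood between 6.00 and 15.4 FPKM in hearts and between 2214 and 5620 in muscles.

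The largest contrast among these genes was between the tissues. In heart the ventricular pair dominated, with medians over 10 libraries of 1781 FPKM for Myl2 and 234 for Myl3, while in muscle the fast pair did, with medians of 1996 FPKM for Myl1 and 1844 for Mylpf. By median level, Myl2 ranked 10 and Myl3 25 among all genes in heart, and Myl1 ranked 13 and Mylpf 15 in muscle. The kinases lay far below their substrates. Mylk3 had a median of 44.3 FPKM in heart and ranked 164, and Mylk2 a median of 58.6 FPKM in muscle and ranked 141.

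Tissue differences were tested with limma on log2(FPKM + 1) in all 20 libraries, with Benjamini-Hochberg adjustment over the 10085 genes tested. Myl1, Myl2 and Myl3, which passed the filter of 1 FPKM in 2 libraries in each tissue, all passed at 0.05, in a fit where 41.6% of all genes did. Of all genes 10.4% were called higher in heart, as Myl2 and Myl3 were, and 31.2% lower, as Myl1 was. These shares include genes that passed the filter in a single tissue. Over mean log2 levels, Myl2 was 6.84 higher in heart (SE 0.51, limma adjusted p = 3.46e-09) and Myl3 4.82 higher (SE 0.52, limma adjusted p = 6.13e-07). The heart minus muscle difference of Myl1 was −8.82 (SE 0.22, limma adjusted p = 3.82e-16). Over all genes tested the median difference was −0.25. The other 3 were listed at 0 in most or all libraries of a tissue and entered the fit only through the tissue where they are high, so their levels are given with no fold and no test. The heart and muscle libraries of Myl1, Myl2 and Myl3 did not overlap, and the share of all genes without overlap was not counted. In bulk tissue, fewer cells of a type and less RNA per cell cannot be told apart.

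**Figure D1:**
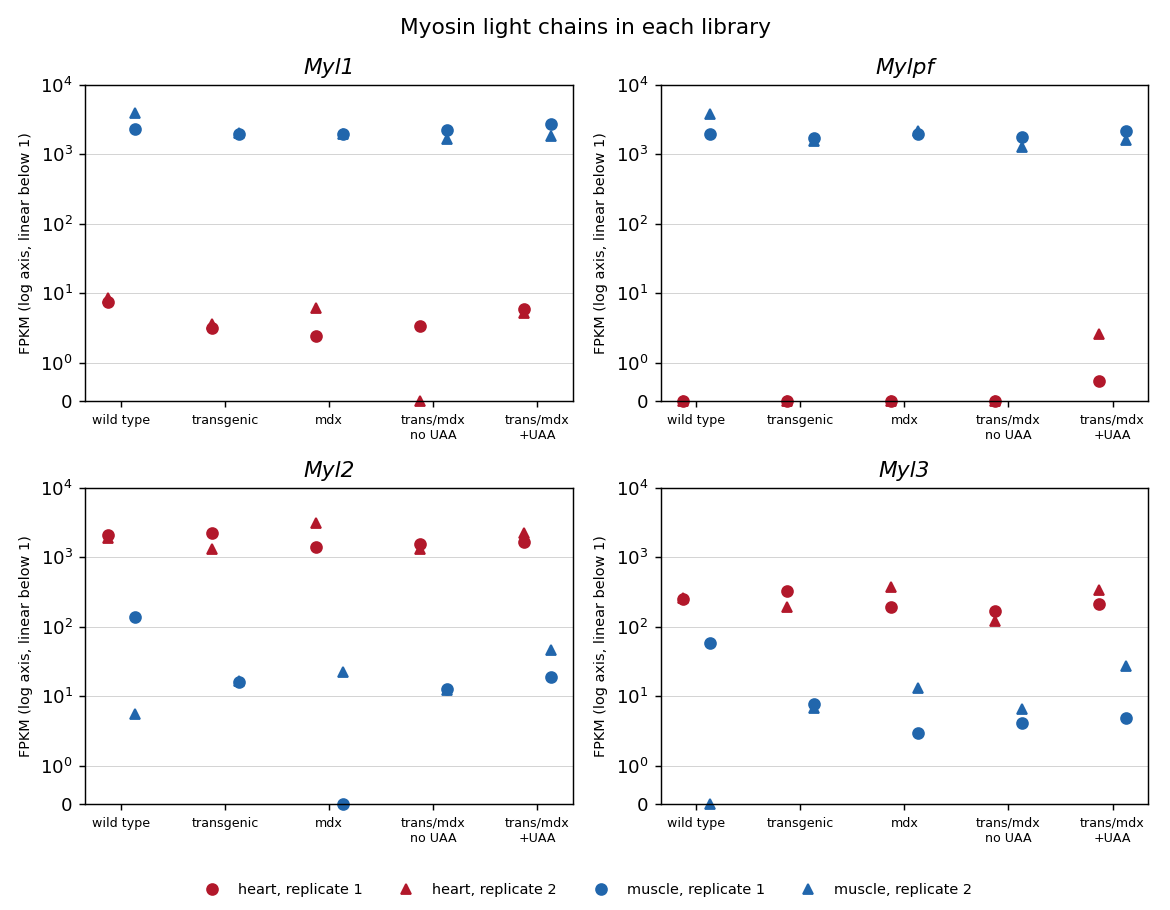
FPKM of the 4 light chains in each library by group, on an axis that is logarithmic above 1 and linear below it. Each point is 1 library, red for heart and blue for muscle. Myl1 and Mylpf lie at 1259 FPKM or more in all 10 muscles and at 8.59 or less in all 10 hearts, whereas Myl2 and Myl3 lie highest in heart and spread widely in muscle.

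In heart, the regulatory chain Myl2 is a common marker of ventricular myocytes. It spans chr5:122100951-122113472 on the plus strand and overlaps Ccdc63 on the opposite strand, so reads of both could be mixed if strand was not used in counting. Wild-type hearts had 2085 and 1916 FPKM, transgenic hearts 2262 and 1339, and mdx hearts 1426 and 3134. Trans/mdx hearts had 1563 and 1306 FPKM without UAA and 1646 and 2250 with it. The mdx replicates span nearly the whole range, and the ranges of all groups next to each other in order of their mean overlapped. Over all 10 hearts the mean was 1893 ± 566 FPKM (SD, n = 10).

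Myl3, the essential chain of the ventricle and of slow fibres, spans chr9:110741861-110769798 on the plus strand and overlaps Pth1r on the other strand. It had 255 and 264 FPKM in wild-type hearts, 331 and 194 in transgenic hearts, and 194 and 376 in mdx hearts. In trans/mdx hearts it had 171 and 122 FPKM without UAA and 212 and 338 with UAA. The untreated trans/mdx hearts were thus the lowest of the 10, below every library of the other groups. How many of all genes have a group set apart in this way was not counted. Against mdx hearts the log2 change was −0.90 (SE 0.42, unadjusted p = 0.0459, limma adjusted p = 0.844), where the median over all genes was −0.26. Treated against untreated trans/mdx hearts it was 0.89 (SE 0.42, unadjusted p = 0.0490, limma adjusted p = 0.829), with a median over all genes of 0.15. Neither passed after adjustment. An unadjusted p under 0.05 was found for 5.79% of all genes in the first contrast and 6.01% in the second. With median-of-ratios scaling both values were smaller, −0.53 and 0.65. Without mdx replicate 2 the first was −0.43 and without mdx replicate 1 −1.38. Without treated replicate 2 the second was 0.55.

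A ratio within a library is free of the scaling between libraries. Myl2 to Myl3 lay between 6.66 and 10.7 in the 10 hearts, with a median of 7.55. The 2 highest ratios, 9.14 and 10.7, were those of the untreated trans/mdx hearts. The other hearts ran from 6.66 in treated replicate 2 to 8.33 in mdx replicate 2. These ratios were not tested, since the genes were chosen with earlier results known.

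Across the 10 hearts the levels of Myl2 and Myl3 were compared on the log2(FPKM + 1) scale. Pearson's r was 0.913 and Spearman's rho 0.939 (n = 10). Without the 2 libraries farthest from the median of Myl2, mdx replicate 2 and untreated trans/mdx replicate 2, r was 0.916. With group means removed it was 0.962. With median-of-ratios scaling it was 0.658, so the value depends on the scaling between libraries. This relation and the 3 in muscle given further on were chosen after the values were seen, so they are descriptions and no p is given. Of all genes tested in heart, Myl3 stood at place 130 by its r with Myl2.

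The cardiac kinase Mylk3 spans chr8:85324303-85386345 on the minus strand, where an antisense gene, AA672651, overlaps it. It had 44.6 and 31.6 FPKM in wild-type hearts, 55.9 and 44.0 in transgenic hearts, and 40.7 and 59.4 in mdx hearts. Trans/mdx hearts had 45.3 and 30.9 FPKM without UAA and 25.4 and 53.0 with UAA. All groups next to each other in order overlapped, and the lowest and the highest heart, 25.4 and 59.4, each had its group partner on the other side of the median. Mylk3 was listed at 0 in all 10 muscles, so it was not tested between muscle groups. Set against its substrate, Mylk3 stood at 1.54 to 3.29% of Myl2 within a heart, with a median of 2.36%.

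The fast chains were scarce in heart. Mylpf was listed at 0 in 8 of 10 hearts, and the exceptions were the treated trans/mdx hearts with 0.533 and 2.61 FPKM. These were worth about 1.25 and 7.96 fragments on its longest coding transcript, or 0.436 and 2.78 on its shortest. Mylk2 was listed at 0 in 9 hearts and stood at 0.0884 FPKM in treated replicate 2, about 1.04 fragments. Neither gene passed the filter of 1 FPKM in 2 libraries in heart, so neither was tested there. Levels of other fast fibre genes were set beside those of Mylpf. Of a list of 12 fast fibre markers, none was listed at 0 in both treated hearts, against 9 in wild-type, 6 in transgenic, 7 in mdx and 5 in untreated trans/mdx hearts. In the treated hearts Tnnt3, fast troponin T, had 7.04 and 2.76 FPKM and Myh4, a fast myosin heavy chain, 2.64 and 2.39. In the other 8 hearts neither gene passed 0.343 FPKM. Not all of the list did so. Tnni2 had 0.944 and 0.756 FPKM in treated hearts and was highest in mdx replicate 2, at 2.00. Mybpc2 had 0.183 and 0.356 FPKM in treated hearts and reached 1.42 in mdx replicate 2. The summed level of the list, most of it Ckm and Acta1, was 112.0 and 129.1 FPKM in treated hearts and 63.9 to 152.7 in the others. The part of these markers in the Mylpf values was not tested.

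Myl1 was low in heart but rarely at 0. Wild-type hearts had 7.43 and 8.59 FPKM, treated trans/mdx hearts 6.02 and 5.14, and mdx hearts 2.41 and 6.19. Transgenic hearts had 3.11 and 3.63 FPKM, and untreated trans/mdx hearts 3.40 and 0. The wild-type hearts were the highest and did not overlap the treated hearts next in order, and the share of all genes that do so was not counted. Wild-type hearts were also those with the most fast fibre markers at 0, namely Myh1, Myh2, Myh4, Tnnt3, Tnni2, Tnnc2, Actn3, Atp2a1 and Pvalb. The part of fast fibre tissue in the Myl1 values was not tested. The log2 change of treated against untreated trans/mdx hearts was 1.65 (SE 0.58, unadjusted p = 0.0125, limma adjusted p = 0.762). Untreated trans/mdx against mdx hearts it was −1.24 (SE 0.58, unadjusted p = 0.04997, limma adjusted p = 0.850). Neither passed after adjustment, and both turn on the untreated library at 0, replicate 2. Without it the values were 0.58 and −0.17, and without its partner, replicate 1, they were 2.71 and −2.31. The second was −0.70 without mdx replicate 2.

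**Figure D2:**
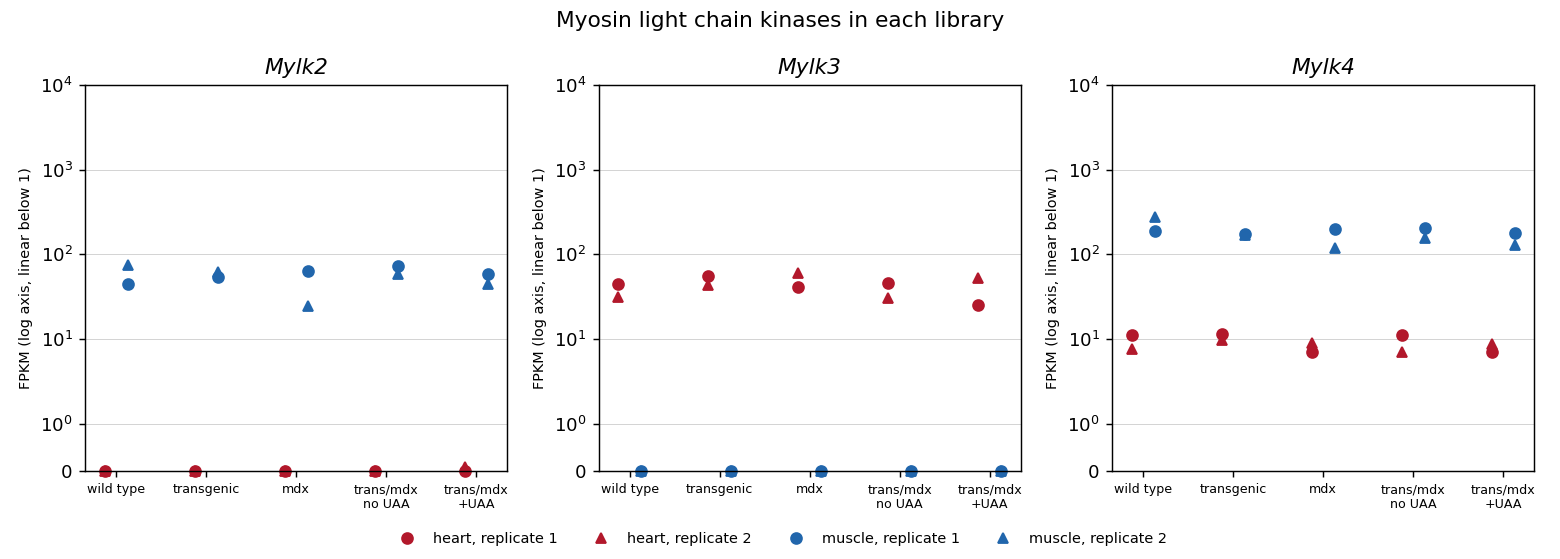
FPKM of Mylk2, Mylk3 and Mylk4 in each library by group, on an axis that is logarithmic above 1 and linear below it. Each point is 1 library, red for heart and blue for muscle. Mylk2 lies between 24.8 and 74.3 FPKM in muscle and at or near 0 in heart, Mylk3 shows the opposite, and Mylk4 is found in both with more in muscle.

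In muscle the fast pair was near parity. Myl1, which makes both essential fast chains from alternative starts, spans chr1:66924295-66945404 on the minus strand. It had 2325 and 3965 FPKM in wild-type muscles, 1957 and 2030 in transgenic muscles, and 1955 and 1961 in mdx muscles. Trans/mdx muscles had 2233 and 1657 FPKM without UAA and 2724 and 1812 with UAA. Wild-type replicate 2 was far above the other 9. Groups next to each other in order of their mean overlapped. Both wild-type muscles lay above every transgenic, mdx and untreated trans/mdx muscle, though replicate 1, at 2325 FPKM, was close to the highest of these, at 2233. The share of all genes with such an order was not counted.

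Mylpf, the fast regulatory chain, spans chr7:127208890-127214298 on the plus strand. It had 1937 and 3826 FPKM in wild-type muscles, 1734 and 1576 in transgenic muscles, and 1974 and 2199 in mdx muscles. Trans/mdx muscles had 1750 and 1259 FPKM without UAA and 2190 and 1613 with UAA. The same wild-type library was the highest, and groups next to each other in order overlapped here too.

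Changes of the fast pair against wild type did not pass after adjustment. For Myl1 the log2 change was −0.63 in mdx muscles (SE 0.27, unadjusted p = 0.0372, limma adjusted p = 0.475) and −0.61 in transgenic muscles (SE 0.27, unadjusted p = 0.0443, limma adjusted p = 0.499). For Mylpf it was −0.72 in transgenic muscles (SE 0.29, unadjusted p = 0.0305, limma adjusted p = 0.489). The medians over all genes in the same contrasts were −0.35 for mdx and −0.33 for transgenic muscles. Across the 3 transgene-carrying groups against the other 2, Mylpf differed by −0.52 (SE 0.19, unadjusted p = 0.0183, limma adjusted p = 0.648), with a median over all genes of −0.11. An unadjusted p under 0.05 was found for 10.1% of all genes in mdx against wild type, 9.91% in transgenic against wild type and 6.7% across the transgene-carrying groups. Wild-type replicate 2 weighed on all 4 values. Without it they were −0.25, −0.22, −0.23 and −0.27, in the order given, and without wild-type replicate 1 they were −1.02, −0.99, −1.21 and −0.76. Under median-of-ratios scaling they were −0.14, −0.15, −0.27 and −0.36.

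Within a muscle library, Myl1 to Mylpf ran from 0.891 to 1.32 with a median of 1.16. Both mdx muscles had the lowest ratios, 0.990 and 0.891, the next being 1.04 in wild-type replicate 2. The highest, 1.28 to 1.32, were in the untreated trans/mdx muscles and transgenic replicate 2. Across the 10 muscles the log2 levels of both chains had r = 0.901 and rho = 0.648 (n = 10). Without treated replicate 1 and wild-type replicate 2, the libraries farthest from the median of Myl1, r was 0.593, so the relation rests in large part on these libraries. With group means removed it was 0.957, and with median-of-ratios scaling 0.744.

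The skeletal kinase Mylk2 spans chr2:152911352-152923068 on the plus strand and has a single coding transcript in the annotation. It had 45.1 and 74.3 FPKM in wild-type muscles, 53.8 and 62.5 in transgenic muscles, and 64.0 and 24.8 in mdx muscles. Trans/mdx muscles had 72.8 and 58.9 FPKM without UAA and 58.4 and 44.5 with UAA. The lowest library was mdx replicate 2, with the next at 44.5 FPKM, and groups next to each other in order overlapped. As a share of Mylpf, its substrate, Mylk2 stood at 1.13 to 4.68% with a median of 2.93%. The untreated trans/mdx muscles had the highest shares, 4.16 and 4.68%, and mdx replicate 2 the lowest.

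The shared ventricular and slow chains varied far more in muscle than the fast pair. Myl2 had 140.7 and 5.48 FPKM in wild-type muscles, 16.1 and 16.5 in transgenic muscles, and 0 and 22.0 in mdx muscles. Trans/mdx muscles had 12.7 and 12.2 FPKM without UAA and 19.0 and 45.6 with UAA. Myl3 had 59.0 and 0 FPKM in wild-type muscles, 7.71 and 6.82 in transgenic muscles, and 2.93 and 13.4 in mdx muscles. Trans/mdx muscles had 4.09 and 6.64 FPKM without UAA and 4.90 and 27.3 with UAA. For both genes the highest and a near-lowest library were the wild-type pair. Between neighbours in order of the mean, the treated, transgenic and untreated trans/mdx muscles did not overlap for Myl2, nor did the transgenic and untreated trans/mdx muscles for Myl3. How many of all genes separate between such neighbours was not counted, so no group effect is read from this. Together both chains made 0.0703 to 4.47% of the 4 light chains by FPKM, with a median of 0.642%, and both ends of that range were wild-type muscles.

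Levels of slow fibre genes were set beside those of Myl2 and Myl3 in each muscle. The summed level of 8 slow fibre markers was 324 and 23.4 FPKM in wild-type, 75.8 and 60.8 in transgenic, 18.3 and 100.2 in mdx, 40.8 and 57.2 in untreated trans/mdx and 38.8 and 207 in treated muscles. Myh7, the slow myosin heavy chain, ran from 0.190 FPKM in wild-type replicate 2 to 56.6 in wild-type replicate 1. No marker of the list was at 0 in both libraries of a group. Of Myl3, Pearson's r over the 10 muscles was 0.975 with Myh7, 0.975 with Tnnt1 (slow troponin T) and 0.954 with Tnnc1 (the troponin C of slow and cardiac muscle). With the fast fibre genes Myh4, Tnnt3 and Myh2 it was −0.64, −0.55 and 0.56. For Myl2 the r with these fast genes was −0.23, −0.14 and 0.65. Over the 8 slow fibre markers, r ran from 0.256 (Casq2) to 0.975 for Myl3 and from 0.660 (Casq2) to 0.874 (Tnni1) for Myl2. These values are given as a description. The amount of slow-fibre tissue in each dissected piece was not measured, and its part in these levels was not tested.

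The relation of Myl2 with Myl3 in muscle had r = 0.769 and rho = 0.879 (n = 10). Without mdx replicate 1 and wild-type replicate 1, r was 0.941, and with a pseudocount of 0.1 FPKM it was 0.508. Myl2 with Myh7 had r = 0.865 and rho = 0.806 (n = 10), the second highest r of the 8 slow markers. Without the same libraries r was 0.908, and with group means removed 0.933. Wild-type replicate 2 was lowest for Myl3 and Myh7 and next to lowest for Myl2, and mdx replicate 1 was listed at 0 for Myl2 with 2.93 FPKM of Myl3.

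**Figure D3:**
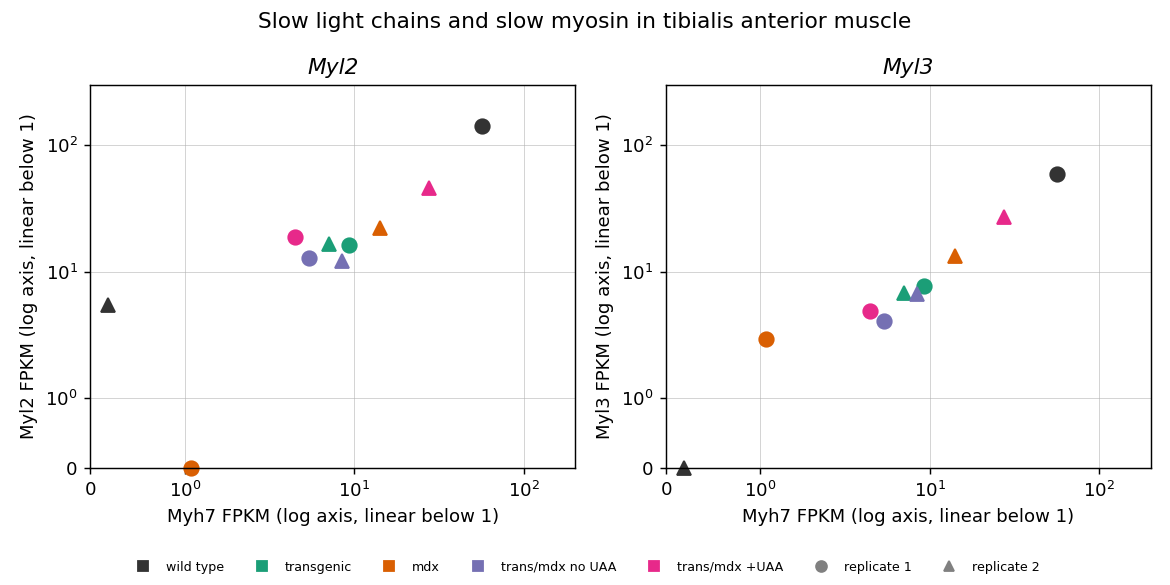
FPKM of Myl2 (left) and Myl3 (right) against FPKM of Myh7 in the 10 muscle libraries, on axes that are logarithmic above 1 and linear below it. Each point is 1 library, coloured by group. Wild-type replicate 1 lies at the upper right at 56.6 FPKM of Myh7, and mdx replicate 1 and wild-type replicate 2 lie at the lower left.

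Between groups, none of the tested light chains or kinases passed the threshold. In heart 4 of the 6 genes passed the filter and none of 40 tests was called by limma, with 4 at an unadjusted p under 0.05 and a smallest adjusted p of 0.762. Of all genes in heart, 0.0121% were called in mdx against wild type, in transgenic against wild type and in untreated trans/mdx against mdx. In treated trans/mdx against mdx 0.0242% were called, and 0% in the other 6 contrasts. In muscle 5 of the 6 genes were tested and none of 50 tests was called by limma, with 4 at an unadjusted p under 0.05 and a smallest adjusted p of 0.475. Of all genes in muscle, 0.011% were called in the mdx-carrying groups against the others and 0% in the other 9 contrasts. The contrasts share control libraries and are not independent of each other.

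With 2 mice per group these contrasts were imprecise. Log2 changes of Myl2 lay between −0.57 and 0.43 in hearts. In muscles they lay between −2.66 and 2.67, where the SE for a pair of groups was 1.34. Both of those ends are contrasts with mdx muscles and turn on mdx replicate 1, listed at 0: without it they were −0.40 and 0.41. The lower end was also −0.43 without wild-type replicate 1. Those of Myl3 in muscle ran from −0.40 to 1.05, with an SE of 1.38. Mylk3 in heart ran from −0.42 to 0.39 and Mylk2 in muscle from −0.53 to 0.70. Each of these ends moved by over 1.5 times when 1 library of its contrast was left out. The lower end changed sign without mdx replicate 2 for Myl2 in heart and Mylk2 in muscle, and without treated replicate 1 for Mylk3, as did the upper end of Myl3 in muscle without treated replicate 2. A change that missed the threshold is therefore not shown to be absent.

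**Figure D4:**
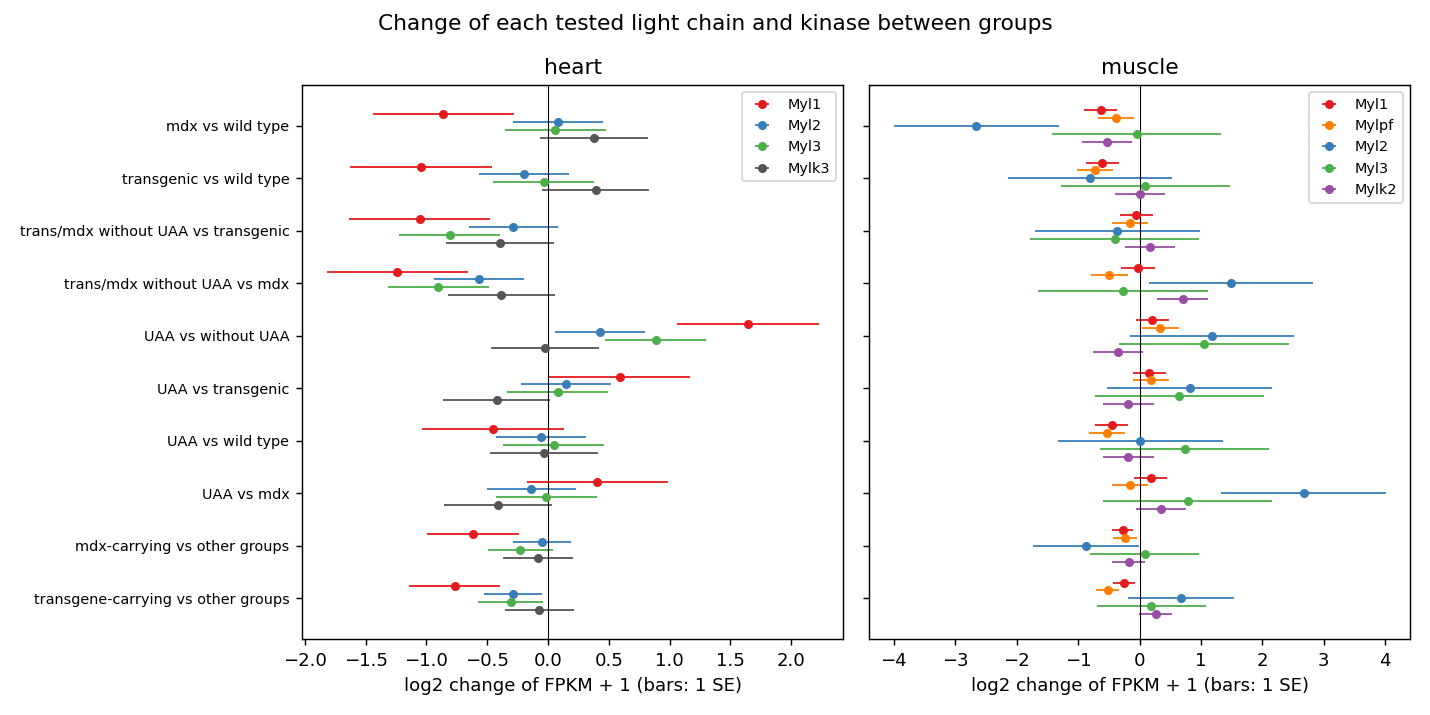
Log2 change of FPKM + 1 (horizontal) for each tested light chain and kinase in the 10 contrasts (vertical), in heart on the left and muscle on the right, with bars of 1 SE and a different horizontal scale in each panel. Myl1 has the widest bars in heart, and Myl2 and Myl3 have the widest in muscle, where Myl2 reaches −2.66 in mdx against wild type and 2.67 in treated trans/mdx against mdx, or −0.40 and 0.41 without mdx replicate 1.

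Whether a contrast differed between heart and muscle was tested for all 6 genes in the fit of 20 libraries. None of 60 tests was called by limma, where 0% of all genes were called in each of the 10 contrasts, and the smallest adjusted p was 0.795. The 3 tests at an unadjusted p under 0.05 were all of Mylpf, in treated trans/mdx against wild type, treated trans/mdx against mdx, and the transgene-carrying groups against the others. Of all genes, 4.77, 4.42 and 4.28% had such a p in these contrasts. The limma adjusted p of Mylpf was 0.946 in the first and near 1 in the others. No size is given, because the wild-type and mdx hearts were listed at 0 and the pseudocount would set it. Mylpf and Mylk2 entered this fit through their muscle values and Mylk3 through its heart values. With their other tissue at or near 0, the tests of these genes largely repeat the contrast of a single tissue. They cannot decide whether that contrast differs between tissues.

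Among other light chains, a list of 8, 5 passed the filter in each tissue, and 3 of these were higher and 0 lower in heart, where 10.4% of all genes tested were higher and 31.2% lower. A further 2 entered through a single tissue and are not counted, whereas the shares of all genes include such genes, here and for the next lists. One of them, the atrial regulatory chain Myl7, had 6.89 to 34.1 FPKM in heart and was listed at 0 in all muscles. Myl4, the atrial and embryonic essential chain, was 2.62 higher in heart on the log2 scale (SE 0.29, limma adjusted p = 9.32e-07). Of the non-muscle chains, Myl12b was 0.67 higher in heart (SE 0.20, limma adjusted p = 0.0118), while Myl6 differed by −0.06 (SE 0.17, limma adjusted p = 0.798). The median difference of the 5 was 0.67, against −0.25 over all genes.

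Of 19 genes of kinases, phosphatase subunits and related signalling, 18 passed the filter in each tissue, and 3 of these were higher and 11 lower in heart, beside the same shares of 10.4% and 31.2% of all genes. Their median was −0.67. Mylk4, a further member of the light chain kinase family, had levels of 6.99 to 11.4 FPKM in hearts and 120 to 279 in muscles, a heart minus muscle difference of −4.17 (SE 0.16, limma adjusted p = 1.76e-13). In each muscle it was 2.67 to 4.85 times the level of Mylk2. Rock1, a kinase that acts on the phosphatase, was 1.63 higher in heart (SE 0.15, limma adjusted p = 9.29e-08). Ppp1r12b, a myosin phosphatase targeting subunit of striated muscle, differed by −0.84 (SE 0.17, limma adjusted p = 0.000580).

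Of 17 thick filament partners, 6 passed the filter in each tissue, and 1 of these was higher and 4 lower in heart, again beside 10.4% and 31.2% of all genes, with a median of −0.73. A further 10 entered through a single tissue and are not counted. Among those, Mybpc3, cardiac myosin binding protein C, had 40.1 to 104 FPKM in heart and was listed at 0 in all muscles. Its fast skeletal counterpart Mybpc2 had 0.183 to 1.42 FPKM in hearts against 240 to 486 in muscles. Myh7, which pairs with Myl2 and Myl3 in slow fibres, differed by −0.32 (SE 0.53, limma adjusted p = 0.665), with medians of 6.01 FPKM in heart and 7.75 in muscle.

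Between the groups, none of the genes of these 3 lists was called by limma in any of the 10 contrasts of either tissue. At an unadjusted p under 0.05, there were 8 of 60 tests of the other light chains, 5 of 180 of the kinase list and 11 of 90 of the thick filament list in heart. In muscle there were 2 of 60, 11 of 190 and 6 of 130. Of all genes, 2.65 to 6.01% per contrast had such a p in heart and 3.79 to 10.1% in muscle. In heart Myl4 had 4.04 and 4.82 FPKM in untreated trans/mdx hearts and 14.3 and 21.2 in treated ones, a log2 change of 1.77 (SE 0.59, limma adjusted p = 0.748). The other hearts had 4.84 to 23.7 FPKM. The summed level of 8 atrial markers was 134 and 92.2 FPKM in untreated and 172 and 223 in treated hearts. That list includes Myl4 itself, and most of the sum is Nppa. The part of the other atrial markers in the Myl4 values was not tested. In muscle Myh2, the myosin of oxidative fast fibres, had 216.5 and 93.7 FPKM in wild-type and 60.7 and 48.2 in mdx muscles, a log2 change of −1.38 (SE 0.42, limma adjusted p = 0.424). Ppp1r14a, an inhibitor of the myosin phosphatase, had 2.40 and 2.62 FPKM in mdx muscles and was listed at 0 in the other 8, and it entered the fit only through the mdx values.

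Likeness to other genes was described by Pearson's r of log2(FPKM + 1) over the 10 libraries of a tissue. FPKM were used as deposited, with no further scaling between libraries, so a library's size factor moves many genes at once, and these values are a description. Closest to Myl2 in heart were Pfkm (0.982), Slc25a4 (0.981), Tnni3 (0.980), Atp5a1 (0.976) and Pkm (0.975). Closest to Myl3 in heart were Atp5j2 (0.970), Rbms2 (0.966), Mrpl53 (0.962), Rps2 (0.951) and Slmap (0.948). The kinase Mylk3 was closest to Ncdn (0.953), Rsl1d1 (0.948), Ddx3y (0.941), Tbc1d15 (0.937) and Ccnd2 (0.932), with an r of 0.612 to its substrate Myl2. In muscle Myl1 was closest to Acta1 (0.979), Eno3 (0.979), Klhl31 (0.972), Ckm (0.971) and Ldha (0.965). Mylpf was closest to Pgam2 (0.971), Fitm1 (0.969), Tmem201 (0.955), Ky (0.948) and Pcbp1 (0.942). Mylk2 was closest to Slc48a1 (0.962), Rps27l (0.956), Rnf150 (0.937), Hook1 (0.935) and Mapkapk5 (0.927), and its r with Mylpf was 0.0831.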

How the data were processed

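FPKM were used as deposited by the authors in a table of both tissues. Per the labels' protocols, rRNA was depleted from total RNA and directional libraries were made. The submitters' processing notes list mm10 as the build, HISAT2 2.0.4, cutadapt 1.9.3, Cuffdiff and Cufflinks, with no use of each. Filters, annotation and the use of strand are not stated there, so genes that overlap can share reads. Counts were not used, so no count model was fitted. Of the table's lines 1 was empty and not analysed here.

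Depth was read from low values of single-transcript genes of at least 3000 bases, of which 79.0 to 91.1% lay within 4% of a whole step. Tests used limma 3.58.1 (R 4.3.3) with an intensity trend on log2(FPKM + 1), two-sided, with Benjamini-Hochberg adjustment at 0.05. Genes at 1 FPKM or more in at least 2 libraries of the fit were tested: 8269 in heart and 9126 in muscle (5 residual degrees of freedom each) and 10085 over both (10 degrees). The filter was passed by 4 of the 6 genes in heart, 5 in muscle and 6 over both. A simulation with the residual spread of each gene in a tissue changed known genes in mdx against wild type. The changed genes had a mean log2 level above 2, and noise was drawn independently for each gene. The shares called are averages over genes of differing spread. At a log2 change of 1 in size, 1.49% of the changed genes were called in heart and 2.99% in muscle. At a change of 2 these shares were 50.7% and 62.7%. Changes near 1 would thus mostly be missed.

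The genes and lists were chosen with earlier results of these data known. A log2 change is printed for one of the 6 genes where its unadjusted p was under 0.05, otherwise the range. From each list the tissue differences and up to 3 genes per tissue with the smallest p were eligible. Likeness names the 5 genes with the highest r. Coordinates are 1-based on mm10, from GENCODE M21, and span exons, introns and UTRs. The deposited loci of Mylpf, Myl3 and Myl2 differ from these spans, and that of Myl2 ends at 122138957. Of the gene identifiers 21839 matched it. No 2 libraries were identical. Whether equal replicate numbers pair libraries was checked by the correlation of replicate differences between groups. The 10 heart values lay between −0.0842 and 0.0482 and the 10 muscle values between −0.0538 and 0.0406, so no pairing was used. The value of 1 gene of these lists is not reported here.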

Additional observations from a re-analysis of the deposited data

How the results depend on the processing

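Alternatives were another pseudocount, filter or scaling, other sets of libraries in the fit, each library left out in turn and a replicate block. The tissue differences of Myl1, Myl2 and Myl3 kept their direction and their side of the threshold in all 26 alternatives each, with a highest limma adjusted p of 4.57e-05. They ranged from −9.39 to −7.99 for Myl1, from 6.39 to 7.44 for Myl2 and from 4.23 to 5.53 for Myl3. Between groups no gene of the 6 was called within a tissue under any alternative run. The difference of treated trans/mdx against wild type between the tissues gained 1 call, Mylpf, with a pseudocount of 0.1 FPKM. Mylpf is listed at 0 in both wild-type hearts, so the pseudocount sets the size of that difference, and nothing rests on this call. With the replicate block, the change of Myl1 between treated and untreated hearts was 1.65 (limma adjusted p = 0.831) and the tissue difference of Myl2 6.84 (limma adjusted p = 1.69e-09). It changed no call. The numbers share no origin in the labels. Without 1 library in turn, the Myl1 change between treated and untreated hearts ran from 0.58 to 2.71. The relations chosen after seeing the data moved under 7 of 16 alternatives. At 2 mice per group and 1970000 to 4110000 implied fragments, genes under about 1 FPKM rest on a few fragments.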
